A study of Mus musculus with 67 samples.

Results

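The transcripts of 9 genes of TGF-beta and activin signaling were followed through early mouse forelimb development in the presence and absence of *Gli3*. They were chosen by gene name from the 46983 gene IDs of the RNA-seq tables: the ligand genes *Tgfb1*, *Tgfb2*, *Tgfb3*, *Inhba* and *Inhbb*, the activin antagonist gene *Fst*, and the receptor genes *Tgfbr1*, *Tgfbr2* and *Tgfbr3*. All 9 names matched 1 gene ID each, and 6 of the 9 were high enough to be tested. RNA was measured in 14 libraries of forelimb buds from embryos on a Swiss Webster background. The question was which transcripts differ in embryos without GLI3, a transcription factor that acts mainly as a repressor when Hedgehog (HH) signaling is absent. Buds were taken before and after the HH pathway is switched on.

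The pre-HH groups were whole buds at E9.25 (21 to 23 somites), with 3 libraries of wild-type (WT) and 4 of *Gli3*-/- embryos. The post-HH groups were anterior parts of buds at E10.5, with 4 WT and 3 *Gli3*-/- libraries. The mutants carried the *Gli3* Xt-J allele, a deletion, on both chromosomes, so that the loss was not timed to either stage. Each library was a pool, labeled as about 4 pairs of buds for the younger stage and 2 pairs for the older, and the study's methods describe buds combined across litters and biological replicates. Whether pools of a group shared litters is not stated, so that p-values measure the spread between these pools. Because the dissected region changed along with the stage, stage and region cannot be told apart. In whole-bud RNA, fewer cells of a type and less RNA per cell cannot be told apart either.

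TGF-beta ligands are secreted as latent dimers, and once released they bind the type II receptor TGFBR2, which recruits and phosphorylates the type I receptor TGFBR1. TGFBR1 then phosphorylates SMAD2 and SMAD3, which enter the nucleus with SMAD4. Activins, dimers of the inhibin beta chains encoded by *Inhba* and *Inhbb*, use other receptors to reach the same SMADs. In the limb this branch is best known for its later parts in cartilage condensation and in joint and tendon formation.

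Levels are given in TPM, a relative transcript abundance that corrects for transcript length and sums to the same total in each library, so that levels of different genes can be set side by side. Libraries held an estimated 38.1 to 56.8 M reads, at which a TPM of 1 stands for 20.7 to 29.3 reads per kilobase of transcript. *Gli3* itself was measured at 15.8 to 44.6 TPM in E9.25 WT, 14.3 to 20.8 in E9.25 *Gli3*-/-, 73.4 to 89.7 in E10.5 WT and 38.7 to 40.9 in E10.5 *Gli3*-/-. It fell at E10.5 by 1.01 on the log2 scale (SE 0.08, limma adjusted p = 0.000335), whereas at E9.25 the difference was -0.74 (SE 0.32, adjusted p = 0.223). There, the library labeled WT replicate 2 held 15.8 TPM, a level within the *Gli3*-/- range. That library had the fewest genes at a TPM of at least 1 (13276), and its long genes, those spanning at least 100 kb, lay a median of 0.55 log2 units below WT replicates 1 and 3, against 0.19 below over all 14760 tested genes. Without that library the *Gli3* difference at E9.25 was -1.22 (SE 0.18, adjusted p = 0.0415) and passed. Member differences that moved by over 1.5 times without it are given with and without it.

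The dissected tissue carried limb mesenchyme markers in every library, with a summed TPM of 6 markers (*Prrx1*, *Tbx5*, *Fgf10*, *Twist1*, *Lhx9* and *Meox2*) between 411 and 864. Markers of the flank and lateral plate (*Foxf1*, *Foxf2*, *Gata4*, *Gata5*, *Gata6*, *Hand1* and *Nkx2-3*) were uneven, with summed TPM of 22.5 to 61.5 in E9.25 WT, 76.5 to 218 in E9.25 *Gli3*-/-, 1.73 to 3.98 in E10.5 WT and 1.13 to 1.58 in E10.5 *Gli3*-/-. *Foxf2* was listed at 0 in every E9.25 WT and E10.5 WT library and *Nkx2-3* in every E10.5 library. At E9.25, 2 of the 5 flank markers tested were higher in *Gli3*-/- (*Foxf1* by 3.68 and *Gata4* by 2.87 on the log2 scale, with limma adjusted p of 0.0125 and 0.0128). *Foxf1* lay at 0.221 to 2.80 TPM in WT, too low for the 3 libraries at a TPM of 1 that a test needs. It was tested through the *Gli3*-/- libraries, where it was high, so its direction carries no weight of its own. Muscle progenitor and neural markers were low at E9.25 but also separated the genotypes, with lower sums in all 4 *Gli3*-/- libraries, and endothelial markers with higher ones. The neural sum was nearly all *Tubb3*, which averaged 8.95 TPM in E9.25 WT and 3.37 TPM in E9.25 *Gli3*-/-. *Sox2*, *Olig2*, *Nkx6-1* and *Elavl3* averaged at most 0.189 TPM in either group. These values stand beside each genotype difference at E9.25, and their part in it was not tested.

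**Figure D1:**
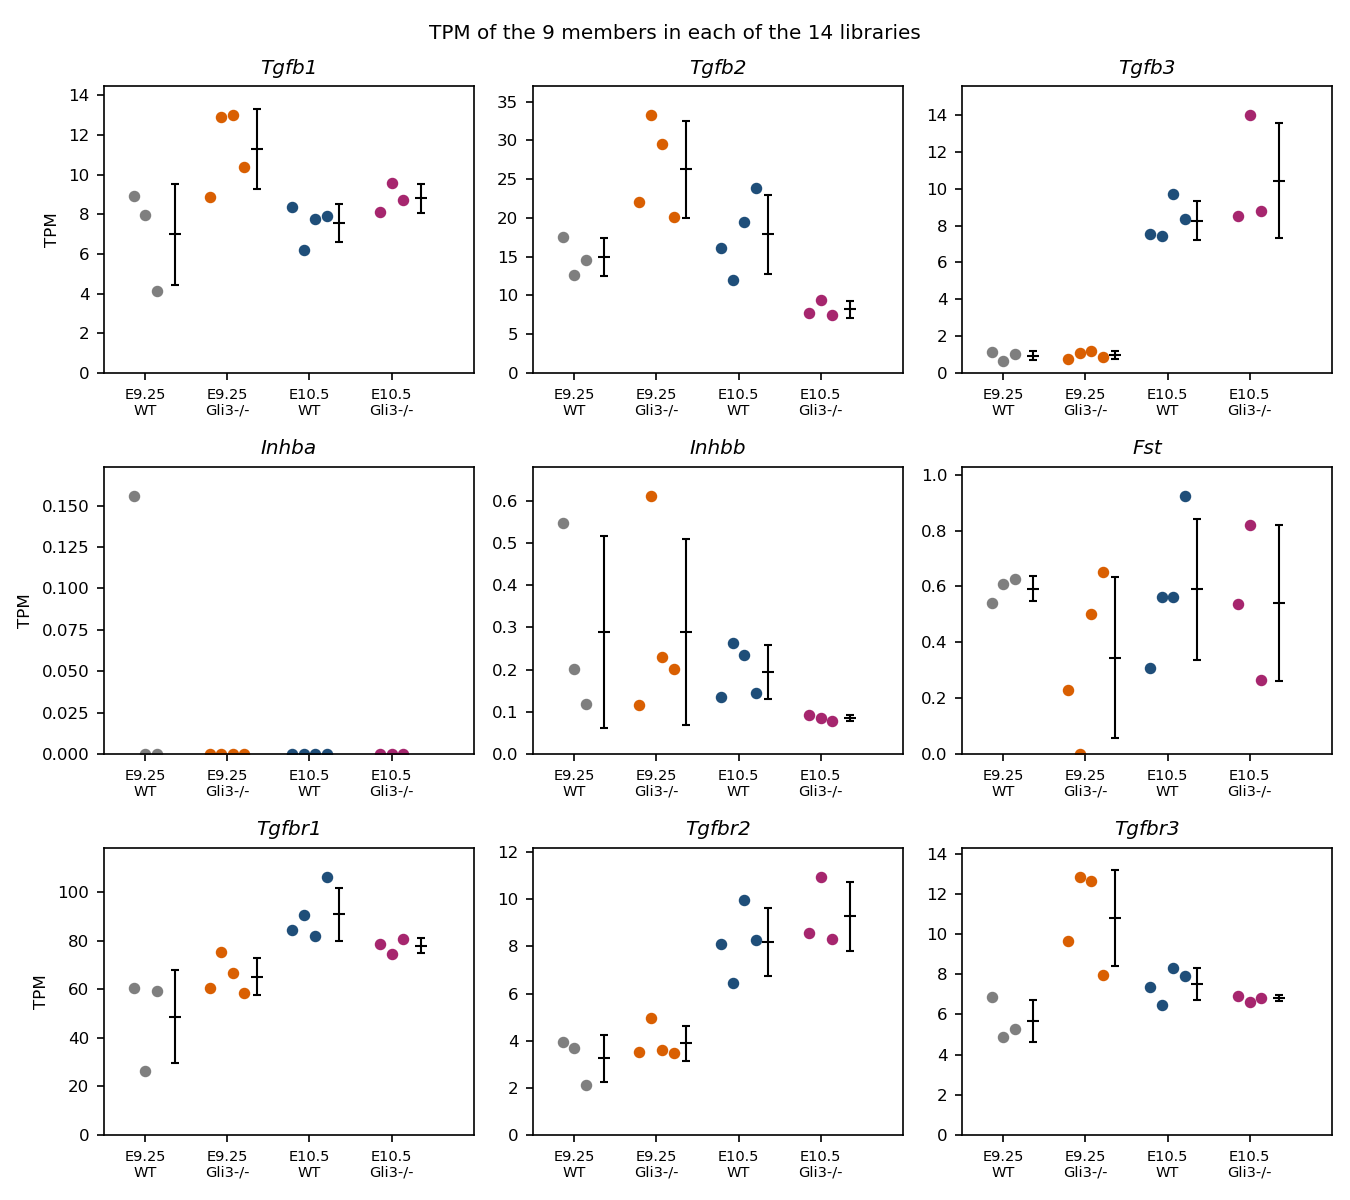
TPM of each gene in each of the 14 libraries, with a separate vertical scale from 0 in each panel. Points are libraries, and the bar beside them is the mean with its SD (n = 3 or 4), left out for *Inhba*, which is listed at 0 in 13 libraries. *Tgfb2* is lowest in the 3 E10.5 *Gli3*-/- libraries, *Tgfb3* and *Tgfbr2* are higher in all 7 E10.5 libraries than in any E9.25 library, and *Inhba*, *Inhbb* and *Fst* stay under a TPM of 1 everywhere.

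Of the 3 TGF-beta ligands, *Tgfb2* was the one that passed a test of genotype. *Tgfb2* (ENSMUSG00000039239.14, mm10 chr1:186622792-186705989, minus strand) encodes TGF-beta 2, the ligand that relies most on the co-receptor encoded by *Tgfbr3*. At E9.25 it was measured at 17.5, 12.7 and 14.5 TPM in WT replicates 1 to 3, and at 22.1, 33.3, 29.6 and 20.1 TPM in *Gli3*-/- replicates 1 to 4. All 4 mutant libraries lay above all 3 WT libraries, as they did for 9.97% of the genes tested at E9.25. At E10.5 it was measured at 16.2, 11.97, 19.5 and 23.9 TPM in WT and at 7.74, 9.44 and 7.46 TPM in *Gli3*-/-. Here all 3 mutant libraries lay below all 4 WT libraries, as they did for 11.5% of the genes tested at E10.5.

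At E10.5 *Tgfb2* averaged 8.22 ± 1.07 TPM (SD, n = 3) in *Gli3*-/- and 17.9 ± 5.06 TPM (SD, n = 4) in WT, a 2.18-fold lower mean. The log2 fold change was -1.002 (SE 0.20, 95% interval -1.45 to -0.55), with a Benjamini-Hochberg adjusted p of 0.0222 in limma's moderated test on log2(TPM + 1), the test used throughout. *Tgfb2* was the only one of the 6 tested members to pass at E10.5, where 4.77% of the 15654 tested genes passed (747 genes, 288 higher and 459 lower). The direction held with every library left out, but the adjusted p rose to 0.0510 without WT replicate 3, 0.0727 without *Gli3*-/- replicate 1 and 0.0915 without *Gli3*-/- replicate 3, and it lay between 0.00314 and 0.162 over the other settings, 8 of 10 of which kept the call. Limb mesenchyme markers summed to 722 to 864 TPM in E10.5 WT and 581 to 608 TPM in E10.5 *Gli3*-/-, and surface ectoderm and ridge markers to 189 to 251 and 303 to 345 TPM. Both sums separated the groups, but the genes within each list did not move together. *Fgf8*, the ridge growth factor, went from 59.1 ± 7.66 (SD, n = 4) to 153 ± 20.1 TPM (SD, n = 3) and was the only one of 8 ectoderm and ridge genes to pass (1.36 higher, adjusted p = 0.000501), with a list median of -0.07 and *Cdh1*, *Wnt7a*, *Sp8* and *Trp63* between -0.26 and -0.38. Of the 6 mesenchyme genes, *Lhx9* (-0.93), *Twist1* (-0.65) and *Prrx1* (-0.56) were lower and *Fgf10* (1.05) and *Meox2* (0.86) higher. Muscle progenitor markers, at 29.6 to 37.4 TPM in WT and 19.9 to 28.8 TPM in *Gli3*-/-, and platelet markers, at 17.3 to 20.8 and 21.4 to 35.4 TPM, also separated the groups. Of the genes in these sums *Gp9*, a platelet glycoprotein gene, passed (0.99 higher, adjusted p = 0.0360). *Gp9* stayed under a TPM of 1 in WT (at most 0.639) and was high enough to be tested only through the *Gli3*-/- libraries. Its direction was thus fixed by the filter. The part of these cell types in the *Tgfb2* difference was not tested.

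At E9.25 *Tgfb2* averaged 26.3 ± 6.22 TPM (SD, n = 4) in *Gli3*-/- and 14.9 ± 2.45 TPM (SD, n = 3) in WT. The log2 difference of 0.76 (SE 0.21) did not pass (adjusted p = 0.206), and it was 0.66 without WT replicate 2. No member passed at E9.25, where 0.136% of 14760 genes did (20 genes, 16 higher and 4 lower, with 3247 at an unadjusted p under 0.05), although 3 of the 6 tested members had an unadjusted p under 0.05. The median tested gene was itself 0.23 higher in *Gli3*-/- on the log2 scale, and *Tgfb2* lay 0.53 above that median. Without WT replicate 2, 18 genes passed, 1621 had an unadjusted p under 0.05 and the median gene was 0.14 higher, and without *Gli3*-/- replicate 2 or 3 the unadjusted counts were 1415 and 1409. In 1 model of all 14 libraries, which shares the spread of the E10.5 groups, the adjusted p was 0.0474, and over all other settings it ran from 0.0474 to 0.374.

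The change of *Tgfb2* with stage therefore differed between the genotypes. In WT it moved by 0.22 (SE 0.22, adjusted p = 0.425) from E9.25 to E10.5, or by 0.12 without E9.25 WT replicate 2, less than the 0.34 of the median gene, and in *Gli3*-/- it fell by 1.54 (SE 0.18, adjusted p = 0.000218), a 3.20-fold lower mean TPM. The interaction of stage and genotype, which tests that difference itself, was -1.76 (SE 0.30, adjusted p = 0.00732), and it was -1.52 relative to the median gene. *Tgfb2* was the only one of 6 tested members to pass the interaction, which 2.13% of 16368 genes passed (348 genes, 78 with a positive and 270 with a negative term). The term stayed past the threshold with each of the 14 libraries left out, including the E9.25 WT library with the low *Gli3* value (adjusted p from 0.00277 to 0.0285), and over the other settings its adjusted p was 0.00478 to 0.0540, the highest with a replicate block. In the same test, 5 of the 5 flank markers tested passed with a negative term, from -1.44 for *Gata5* to -3.59 for *Foxf1*. *Foxf1* was again tested through its E9.25 *Gli3*-/- libraries. The flank markers summed to only 1.73 to 3.98 TPM in E10.5 WT and 1.13 to 1.58 TPM in E10.5 *Gli3*-/-. Their terms therefore largely repeat their E9.25 genotype difference with its sign turned, and that difference set the sign. The part of flank tissue in the *Tgfb2* value was not tested. Among the 4 groups, the order of *Tgfb2* was E9.25 *Gli3*-/-, E10.5 WT, E9.25 WT and E10.5 *Gli3*-/-, and only the last step had ranges that did not overlap.

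The promoter window of *Tgfb2* is shown because it is the member that changed with genotype. RefSeq (GRCm38.p6) gives 250 bases upstream of its start at chr1:186705990-186706239, minus strand, and capitals mark the matches to the motifs searched, which do not overlap one another.

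Tgfb2: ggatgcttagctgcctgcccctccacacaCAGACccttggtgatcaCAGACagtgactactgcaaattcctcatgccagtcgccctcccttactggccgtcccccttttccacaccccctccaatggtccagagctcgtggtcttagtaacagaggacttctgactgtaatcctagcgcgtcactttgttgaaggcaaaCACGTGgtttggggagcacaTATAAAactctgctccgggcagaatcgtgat

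Both strands were searched for 4 motifs. The E-box, CACGTG, which reads alike on both strands, begins 51 bases before the start and is in 6.02% of the 32851 RefSeq promoter windows of this length. The TATA box, searched as TATAAA, begins 31 bases before the start and is in 12.4% of all windows. The short element that SMADs bind, searched as CAGAC, begins 204 and 221 bases before the start and is in 42.2% of all windows. The GLI consensus, searched as GACCACCCA, is not in this window and is in 0.225% of all windows. Of the 9 members, 6 had a window in the table, and none of their 7 windows holds the GLI consensus.

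*Tgfb3* was the member that rose most with stage, in both genotypes. *Tgfb3* (ENSMUSG00000021253.6, chr12:86056744-86079041, minus strand) encodes TGF-beta 3, the ligand best known for palate fusion. At E9.25 it was measured at 1.15, 0.65 and 1.04 TPM in WT and at 0.76, 1.10, 1.17 and 0.88 TPM in *Gli3*-/-, close to the filter of 1 TPM. At E10.5 the values were 7.56, 7.44, 9.72 and 8.35 TPM in WT and 8.53, 14.0 and 8.79 TPM in *Gli3*-/-. Every E10.5 library lay above every E9.25 library, whereas the genotypes overlapped at both stages, in the order E10.5 *Gli3*-/-, E10.5 WT, E9.25 *Gli3*-/- and E9.25 WT. The share of all genes separated by stage in this way was not counted, and 48.7% of tested genes passed for stage in WT.

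In WT the mean of *Tgfb3* went from 0.947 ± 0.265 (SD, n = 3) to 8.27 ± 1.05 TPM (SD, n = 4), 8.73-fold, and after the pseudocount of 1, which shrinks the fold of a low gene, the log2 value rose by 2.25 (SE 0.17, adjusted p = 6.15e-05), or 1.92 above the median gene. In *Gli3*-/- it rose by 2.51 (SE 0.19, adjusted p = 1.02e-05), 10.7-fold in mean TPM. Both calls held under every other setting and with every library left out. The genotype difference was 0.03 (SE 0.20, 95% interval -0.42 to 0.47, adjusted p = 0.941) at E9.25, or -0.091 without WT replicate 2, and 0.28 (SE 0.17, interval -0.11 to 0.66, adjusted p = 0.413) at E10.5, or 0.066 without *Gli3*-/- replicate 2. The interaction was 0.25 (SE 0.25, adjusted p = 0.551). *Tgfb3* overlaps *Ttll5* on the opposite strand (up to 16.3 TPM), and strand assignment is not given in the sources used here.

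*Tgfb1* (ENSMUSG00000002603.15, chr7:25687002-25705077, plus strand) encodes TGF-beta 1, the ligand widely made by blood, immune and endothelial cells. It was measured at 8.94, 7.96 and 4.12 TPM in E9.25 WT and at 8.88, 12.9, 13.02 and 10.4 TPM in E9.25 *Gli3*-/-. At E10.5 the values were 8.36, 6.20, 7.75 and 7.93 TPM in WT and 8.13, 9.58 and 8.71 TPM in *Gli3*-/-. The groups overlapped in every pair of neighbors when ordered by mean (E9.25 *Gli3*-/-, E10.5 *Gli3*-/-, E10.5 WT, E9.25 WT). *Tgfb1* passed no test, with log2 differences of 0.66 (SE 0.25, adjusted p = 0.217) for genotype at E9.25, 0.20 (SE 0.12, adjusted p = 0.401) for genotype at E10.5, 0.15 (SE 0.24, adjusted p = 0.621) for stage in WT, -0.31 (SE 0.16, adjusted p = 0.178) for stage in *Gli3*-/- and -0.46 (SE 0.29, adjusted p = 0.347) for the interaction. Without E9.25 WT replicate 3, its lowest library, the E9.25 genotype difference was 0.37, that for stage in WT -0.15 and the interaction -0.17, and without E9.25 WT replicate 2 the stage difference in WT was 0.26. The stage difference in *Gli3*-/- passed when libraries were rescaled by median-of-ratios size factors (-0.38, adjusted p = 0.0326). Endothelial markers (7 genes, among them *Pecam1*, *Cdh5* and *Kdr*) summed to 64.9 to 108 TPM in E9.25 WT and 119 to 178 TPM in E9.25 *Gli3*-/-, and to 93.6 to 117 TPM over both E10.5 groups, and their part in the *Tgfb1* values was not tested.

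Set side by side, the 3 ligands changed in proportion. *Tgfb2* made up 59.6 to 73.8% of the summed TPM of the 3 ligands in E9.25 WT, 64.1 to 70.4% in E9.25 *Gli3*-/-, 46.7 to 59.5% in E10.5 WT and 28.6 to 31.7% in E10.5 *Gli3*-/-. *Tgfb3* made up 3.04 to 5.30%, 2.33 to 2.79%, 20.8 to 29.1% and 35.0 to 42.4% in the same order. *Tgfb2* thus exceeded *Tgfb3* in all 11 libraries of the other groups and was below it in all 3 E10.5 *Gli3*-/- libraries, where the ratio of *Tgfb2* to *Tgfb3* was 0.674 to 0.907. These shares describe the values already tested and carry no test of their own.

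**Figure D2:**
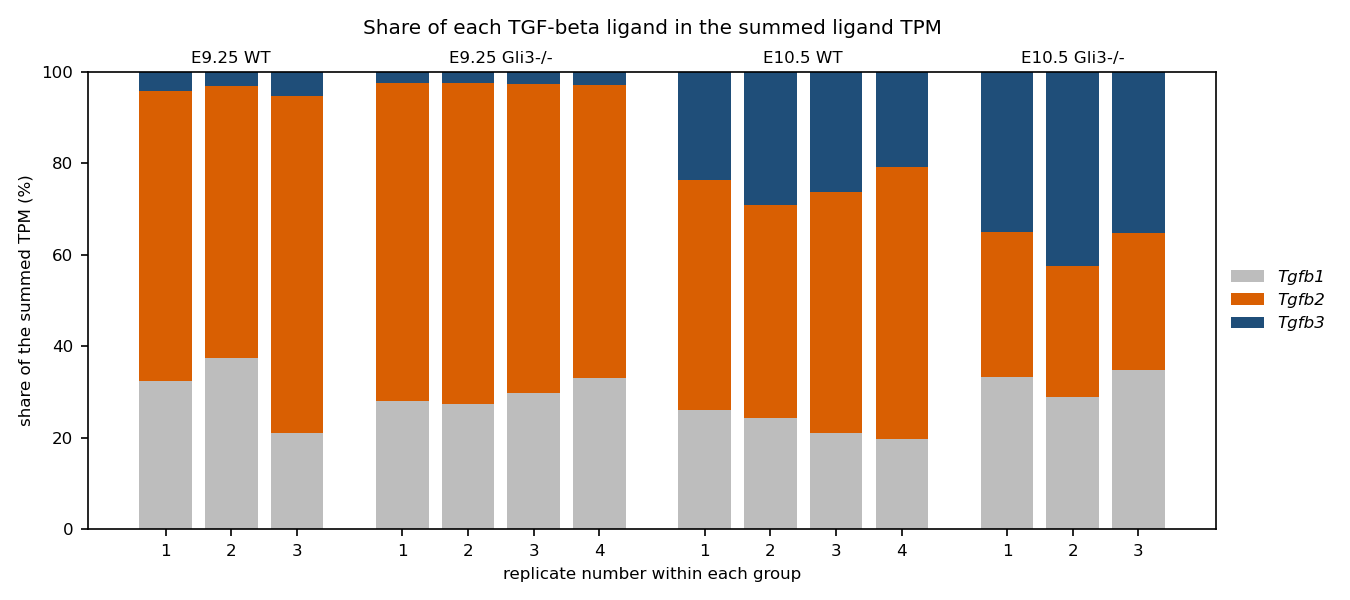
Share (%) of *Tgfb1*, *Tgfb2* and *Tgfb3* in their summed TPM, as 1 stacked bar from 0 to 100% per library, grouped by stage and genotype. *Tgfb3* takes 2.33 to 5.30% of the bars at E9.25 and 20.8 to 42.4% at E10.5, and *Tgfb2* is under 32% in the 3 E10.5 *Gli3*-/- libraries alone.

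The activin genes and their antagonist were low in every library. *Inhba* (ENSMUSG00000041324.13, chr13:16011851-16027211, plus strand), which encodes the inhibin beta A chain of activin A, was measured at 0.156 TPM in E9.25 WT replicate 1 and was listed at 0 in the other 13 libraries. *Inhba* starts 282 kb beyond the end of *Gli3* (chr13:15463235-15730026) with no annotated gene between them, so it lies in the segment of the chromosome closely linked to the mutant allele. Of 565 genes within 20 Mb of *Gli3* on either side, 160 were tested at E9.25 (3 higher, 1 lower in *Gli3*-/-), of which 2.5% passed against 0.136% of all tested genes. At E10.5, 170 were tested (9 higher, 2 lower), of which 6.47% passed against 4.77% of all.

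*Inhbb* (ENSMUSG00000037035.5, chr1:119415465-119422248, minus strand), which encodes the inhibin beta B chain of activin B, was measured at 0.118 to 0.548 TPM in E9.25 WT, 0.116 to 0.612 in E9.25 *Gli3*-/-, 0.136 to 0.264 in E10.5 WT and 0.0779 to 0.0928 in E10.5 *Gli3*-/-. The 3 E10.5 mutant libraries lay below the 4 WT libraries, as they did for 11.5% of the genes tested at E10.5, and at levels that stand for few reads. *Fst* (ENSMUSG00000021765.7, chr13:114452262-114458730, minus strand), which encodes follistatin, the secreted protein that binds and neutralizes activins, was measured at 0.540 to 0.626 TPM in E9.25 WT, 0 to 0.652 in E9.25 *Gli3*-/-, 0.309 to 0.925 in E10.5 WT and 0.265 to 0.822 in E10.5 *Gli3*-/-, and all 4 groups overlapped. None of the 3 genes reached a TPM of 1 in any library, so none was tested. With no filter none of them had an adjusted p under 0.05 in any comparison in which it could be fitted, and the lowest was 0.244, for *Inhbb* at E10.5 (-0.14, unadjusted 95% interval -0.25 to -0.026).

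Among the receptors, *Tgfbr1* (ENSMUSG00000007613.15, chr4:47353222-47414931, plus strand), which encodes the type I receptor, was the highest member in every library. It was measured at 60.4, 26.5 and 59.3 TPM in E9.25 WT and at 60.4, 75.2, 66.5 and 58.5 TPM in E9.25 *Gli3*-/-. At E10.5 the values were 84.4, 90.4, 82.0 and 106 TPM in WT and 78.5, 74.5 and 80.5 TPM in *Gli3*-/-. WT replicate 2 at E9.25 stood far below the other libraries. At E10.5 the mutant libraries lay just below the WT libraries, as they did for 11.5% of the genes tested there. The order of the means was E10.5 WT, E10.5 *Gli3*-/-, E9.25 *Gli3*-/- and E9.25 WT, and the last 3 overlapped with their neighbors.

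*Tgfbr1* rose with stage in WT by 0.97 (SE 0.26, adjusted p = 0.0167), or 0.63 above the median gene, and by 0.59 with an adjusted p of 0.00418 without E9.25 WT replicate 2. The call held with each other library left out. In *Gli3*-/- the stage difference was 0.26 (SE 0.11, adjusted p = 0.123), and it passed without E9.25 *Gli3*-/- replicate 2 (0.33, adjusted p = 0.0376) and with libraries weighted by quality (0.35, adjusted p = 0.00619). The interaction of -0.71 (SE 0.30, adjusted p = 0.213) did not pass and was -0.33 without E9.25 WT replicate 2, so a difference in stage response between the genotypes was not shown for this gene. Genotype moved *Tgfbr1* by 0.50 (SE 0.26, adjusted p = 0.258) at E9.25, and by 0.11 without WT replicate 2, and by -0.21 (SE 0.09, adjusted p = 0.245) at E10.5.

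*Tgfbr2* (ENSMUSG00000032440.12, chr9:116087698-116175363, minus strand) encodes the type II receptor that binds the ligand first. It was measured at 3.94, 3.69 and 2.12 TPM in E9.25 WT and at 3.51, 4.97, 3.60 and 3.46 TPM in E9.25 *Gli3*-/-. At E10.5 the values were 8.10, 6.46, 9.96 and 8.26 TPM in WT and 8.57, 11.0 and 8.30 TPM in *Gli3*-/-. All E10.5 libraries lay above all E9.25 libraries, with the genotypes overlapping at each stage and the means in the same order as those of *Tgfb3*. As for *Tgfb3*, the share of all genes separated in this way was not counted.

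*Tgfbr2* rose with stage in WT by 1.13 (SE 0.21, adjusted p = 0.00355), 2.52-fold in mean TPM and 0.79 above the median gene, and in *Gli3*-/- by 1.07 (SE 0.17, adjusted p = 0.00110), 2.39-fold and 1.01 above the median gene. Both calls held under every other setting and with every library left out. The interaction was -0.056 (SE 0.27) and did not pass, and it was -0.14 without E9.25 WT replicate 2. Genotype differences were 0.22 (SE 0.23, 95% interval -0.29 to 0.73, adjusted p = 0.536) at E9.25, or 0.011 without WT replicate 3, and 0.16 (SE 0.15, interval -0.17 to 0.50, adjusted p = 0.603) at E10.5. In every library *Tgfbr1* was higher than *Tgfbr2*, by 7.19 to 28.0-fold at E9.25 and 6.79 to 14.0-fold at E10.5. The 250 bases upstream of *Tgfbr2* in RefSeq (GRCm38.p6, chr9:116175364-116175613, minus strand) are shown as those of a member that rose with stage in both genotypes, with the SMAD element in capitals, found once, 160 bases before the start. Unlike the *Tgfb2* window they hold no TATA box or E-box by these letters.

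Tgfbr2: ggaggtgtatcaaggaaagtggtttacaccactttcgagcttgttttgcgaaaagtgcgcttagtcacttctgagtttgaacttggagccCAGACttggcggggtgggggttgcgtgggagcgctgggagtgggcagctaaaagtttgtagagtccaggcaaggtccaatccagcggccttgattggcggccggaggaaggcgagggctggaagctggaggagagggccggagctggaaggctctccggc

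*Tgfbr3* (ENSMUSG00000029287.14, chr5:107106570-107289629, minus strand) encodes betaglycan, the co-receptor that presents TGF-beta 2 and also binds inhibins. It was measured at 6.86, 4.85 and 5.28 TPM in E9.25 WT and at 9.67, 12.9, 12.7 and 7.96 TPM in E9.25 *Gli3*-/-. At E10.5 the values were 7.34, 6.47, 8.30 and 7.90 TPM in WT and 6.93, 6.64 and 6.83 TPM in *Gli3*-/-. At E9.25 every mutant library was above every WT library, and at E10.5 the groups overlapped. Ordered by mean (E9.25 *Gli3*-/-, E10.5 WT, E10.5 *Gli3*-/-, E9.25 WT), each group overlapped with the next.

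*Tgfbr3* was 0.81 higher in *Gli3*-/- at E9.25 (SE 0.22, adjusted p = 0.199), 0.59 above the median gene, and did not pass. It passed with an adjusted p of 0.0188 in 1 model of all 14 libraries (range over the other settings 0.0188 to 0.374), and the difference was 0.72 without WT replicate 2 (adjusted p = 0.369). *Tgfb2* and *Tgfbr3* were the members whose E9.25 mutant libraries all lay above every WT library, as did 9.97% of the tested genes. At E10.5, *Tgfb2* and *Tgfbr1* were the tested members whose mutant libraries all lay below every WT library, as did 11.5% of the tested genes. *Tgfbr3* differed by -0.12 (SE 0.11, 95% interval -0.36 to 0.12, adjusted p = 0.603) at E10.5.

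Over stage, *Tgfbr3* fell in *Gli3*-/- by 0.57 (SE 0.17, adjusted p = 0.0354), a call lost without E9.25 *Gli3*-/- replicate 2 or 3 and without any of the 3 E10.5 *Gli3*-/- libraries (adjusted p 0.0612 to 0.115), while in WT the difference was 0.36 (SE 0.16, adjusted p = 0.0914), which is the shift of the median gene. The interaction was -0.93 (SE 0.23, adjusted p = 0.0553) and did not pass. It passed without E9.25 WT replicate 1 (adjusted p = 0.0206) and without E9.25 *Gli3*-/- replicate 4 (adjusted p = 0.0185), and over the other settings its adjusted p was 0.0424 to 0.117. In total 3 of the 6 tested members rose with stage in WT (*Tgfb3*, *Tgfbr1* and *Tgfbr2*), where 48.7% of 15444 genes passed (5885 higher, 1635 lower), and 4 of 6 changed with stage in *Gli3*-/- (*Tgfb3* and *Tgfbr2* higher, *Tgfb2* and *Tgfbr3* lower), where 25.0% of 15434 genes passed (2437 higher, 1416 lower). The shares of members that passed are from few genes and, in WT, close to that of all genes.

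**Figure D3:**
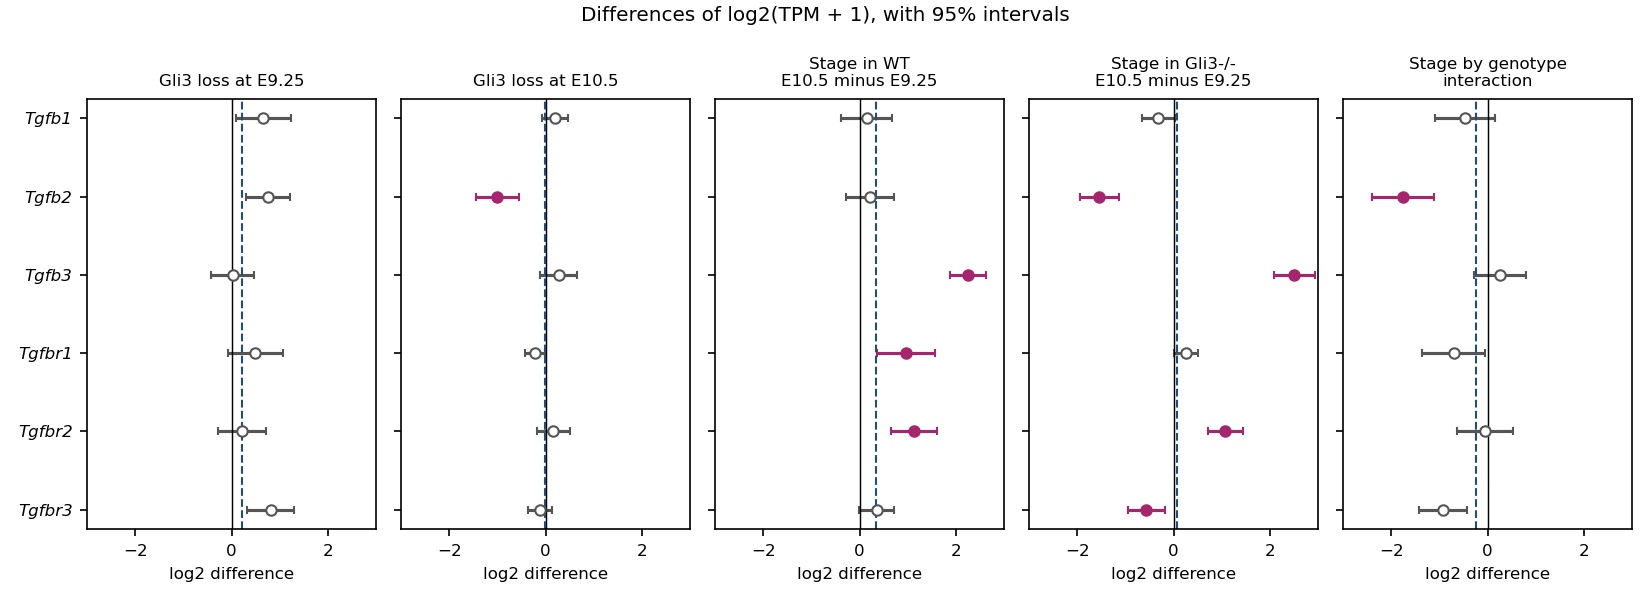
Differences of log2(TPM + 1) with 95% confidence intervals from limma for the 6 tested members (rows) in the 5 comparisons (panels). Filled points passed an adjusted p of 0.05, the solid line is 0 and the dashed line is the median of all tested genes. *Tgfb2* passes at E10.5 (-1.002), with stage in *Gli3*-/- (-1.54) and in the interaction (-1.76), and no member passes at E9.25.

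Other genes of the pathway were summarized in lists. Of the other receptors of TGF-beta and activin type, 5 of 6 were tested (*Acvr1*, *Acvr1b*, *Acvr2a*, *Acvr2b* and *Eng*, with *Acvr1c* under the filter). *Acvr1* encodes a type I receptor that signals mainly through the BMP SMADs, and *Eng* a co-receptor. None passed for genotype at either stage or in the interaction, and 3 rose with stage in WT: *Acvr1b* by 0.89, *Acvr2a* by 0.66 and *Acvr1* by 0.60, with a list median of 0.60 against 0.34 for all genes. Those 3 are 60.0% of the receptors tested, against 48.7% of all tested genes in WT. None passed with stage in *Gli3*-/-, where 25.0% of all tested genes did. Of 9 other genes for ligands or ligand chains of the wider TGF-beta family only *Gdf11* and *Inha* were tested. *Gdf11*, a ligand known for axial patterning, averaged 15.3 ± 3.68 TPM (SD, n = 3) in E9.25 WT and 48.1 ± 4.80 TPM (SD, n = 4) in E10.5 WT, and it rose with stage by 1.61 in WT (adjusted p = 0.000227) and by 1.23 in *Gli3*-/- (adjusted p = 0.000626). *Inha*, which encodes the inhibin alpha chain and not a chain of the activins, rose by 1.24 in WT (adjusted p = 0.00134). It lay at 0.601 to 1.15 TPM in E9.25 WT and was high enough to be tested through the E10.5 libraries.

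Of 14 antagonist and ligand storage genes, 2 of 8 tested fell at E10.5 in *Gli3*-/-: *Fbn1*, the microfibril protein that anchors latent TGF-beta complexes, by 0.68 (adjusted p = 0.0204) and *Fstl1* by 0.31 (adjusted p = 0.0376). The list median was -0.25 against -0.02 for all genes, and 25.0% of the list's tested genes passed against 4.77% of all. *Fbn1* was also the list's only gene to pass the interaction (-2.01, adjusted p = 0.0402), as it rose with stage in WT by 1.13 and fell in *Gli3*-/- by 0.88. It ranged from 1.62 to 8.28 TPM over the E9.25 WT libraries, and calls of list genes were not examined with a library left out. With stage, 4 of 8 rose and 1 fell in WT, and 3 of 11 rose and 3 fell in *Gli3*-/-. These are 62.5% and 54.55% of those tested, against 48.7% and 25.0% of all tested genes. Both counts include *Ltbp3*, at most 0.666 TPM at E9.25, and that in *Gli3*-/- includes *Lrrc32*, at most 0.684 TPM at E10.5. The directions of these genes were fixed by the filter. Those named for size are *Ltbp4*, a latent TGF-beta binding protein, which rose by 1.92 in WT and 0.99 in *Gli3*-/-, *Bambi*, a pseudoreceptor that blocks signaling, which fell by 1.34 in WT and by 1.54 in *Gli3*-/-, and *Lrrc32*, which holds latent TGF-beta at the cell surface and fell by 1.19 in *Gli3*-/-. At E9.25 none of 10 tested passed for genotype, with a list median of 0.70 against 0.23.

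Of 8 genes that process or activate ligands, *Thbs1*, whose product thrombospondin 1 can activate latent TGF-beta, was the one of 7 tested that passed for genotype at E10.5, where 4.77% of all tested genes passed. It averaged 18.4 ± 0.73 TPM (SD, n = 3) in *Gli3*-/- and 10.6 ± 1.40 TPM (SD, n = 4) in WT, 0.75 higher on the log2 scale (SE 0.11, adjusted p = 0.00521). With stage 4 of 7 rose in WT (list median 1.00 against 0.34 for all genes, of which 48.7% passed) and 5 of 7 in *Gli3*-/- (0.88 against 0.06, with 25.0% of all passing), and none fell. *Bmp1*, a protease that frees ligands from latent complexes, rose by 1.83 and 1.58, and *Itgb8*, an integrin chain that activates latent TGF-beta, by 1.00 and 1.15. *Itgb8* stayed under a TPM of 1 at E9.25 (at most 0.512 in WT and 0.321 in *Gli3*-/-). Its direction was thus fixed by the filter in both genotypes, and it is among the counts. At E9.25 none of 6 tested passed, and none of 7 passed the interaction.

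Of 11 intracellular transducers and inhibitors, all tested in every comparison, none passed for genotype at E9.25 or E10.5 or in the interaction. With stage, 6 rose in WT and 1 in *Gli3*-/-, and none fell. These are 54.55% of the list in WT, where 48.7% of all tested genes passed, and 9.09% in *Gli3*-/-, where 25.0% did. *Skil*, the SMAD co-repressor SnoN, rose in both (1.04 and 0.52), while *Tgif1* (0.86), *Smad3* (0.84) and *Smurf1* (0.71) passed in WT. The list median in WT was 0.50 against 0.34 for all genes.

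Of 14 genes that TGF-beta is known to induce in various cells, 4 passed for genotype at E10.5 (28.6%, against 4.77% of all tested genes). *Col1a2*, a type I collagen chain, fell by 0.88 (adjusted p = 0.0404), *Tgfbi* by 0.71 (adjusted p = 0.0248) and *Snai2* by 0.49 (adjusted p = 0.0180), while *Junb* rose by 0.56 (adjusted p = 0.0404). The list median was -0.25 against -0.02 for all genes, 4 of 14 lay above the median gene, and each of these genes also answers to other signals. At E9.25 none of 13 tested passed. With stage 9 rose and 2 fell in WT, among them *Col1a2* (3.19), *Pmepa1* (1.77), *Junb* (-1.19) and *Postn* (-3.24), and 3 rose and 2 fell in *Gli3*-/-, among them *Postn* (-3.32), *Pmepa1* (1.38), *Col1a2* (1.33) and *Col1a1* (-0.999). The stage calls are 78.6% of the list in WT and 35.7% in *Gli3*-/-, against 48.7% and 25.0% of all tested genes. They include *Pmepa1*, at most 0.757 TPM at E9.25, and in WT *Postn*, at most 0.811 TPM at E10.5. The directions of those calls were fixed by the filter. None of the 14 passed the interaction, with a median of -0.67 against -0.24.

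**Figure D4:**
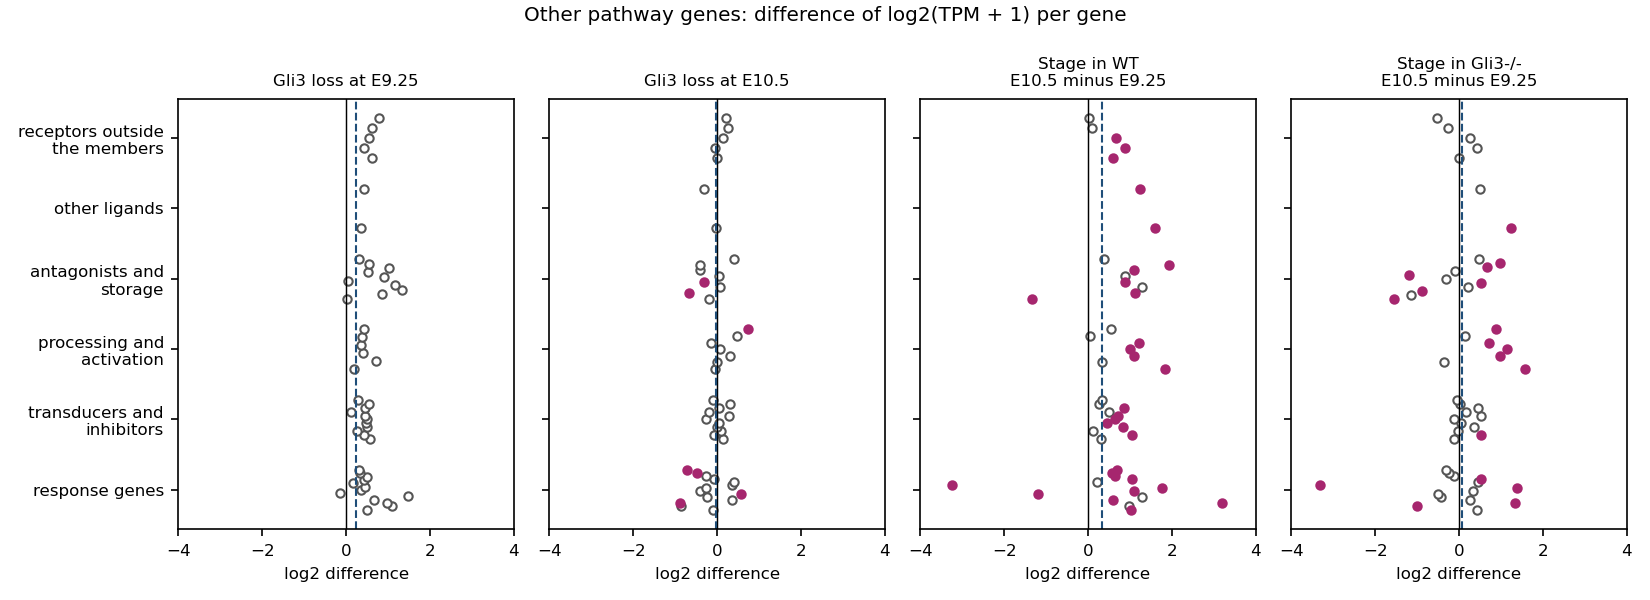
Difference of log2(TPM + 1) for each tested gene of 6 lists of other pathway genes (rows) in 4 comparisons (panels). Each point is a gene, filled where the limma adjusted p is under 0.05, and the dashed line is the median of all tested genes. No gene of the 6 lists passes at E9.25, 7 pass for genotype at E10.5, and most filled points are in the stage comparisons.

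For each member that passed a test, the genes with the most similar profile were found among 16367 others as those with the smallest root mean square difference of centered log2(TPM + 1) over the 14 libraries. For *Tgfb2* these were *Id3*, an inhibitor of basic helix-loop-helix factors (0.21 log2 units), and *Dpysl3* (0.22). *Id3* averaged 108, 164, 123 and 69.5 TPM and *Dpysl3* 15.5, 34.1, 16.8 and 9.94 TPM in E9.25 WT, E9.25 *Gli3*-/-, E10.5 WT and E10.5 *Gli3*-/-, so that both had the order of the *Tgfb2* means. For *Tgfb3* they were *Lrig1*, an inhibitor of receptor tyrosine kinases (0.15), and *Mertk*, itself a receptor tyrosine kinase (0.19). They were *Ccnt2* and *Cpne3* for *Tgfbr1* (0.07 and 0.08), *Carhsp1* and *Sorbs3* for *Tgfbr2* (0.11 and 0.12), and *Hspa12a* and *Add3* for *Tgfbr3* (0.10 each). Likeness was measured on all libraries, and flat genes are close to one another by this measure.

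Markers of the other cell types that a bud can hold were also summed. Macrophage and white cell markers came to 0.0634 to 0.901 TPM at E9.25, with *Aif1* and *C1qa* listed at 0 in all 7 libraries, and to 8.98 to 15.3 TPM at E10.5. In each genotype 5 of 5 tested rose with stage. At those E9.25 levels a marker could reach the filter of 1 TPM only through the E10.5 libraries. The direction of that count was thus fixed by the filter. Muscle progenitor markers came to 2.29 to 3.83 TPM in E9.25 WT and 0.436 to 1.30 TPM in E9.25 *Gli3*-/-, and to 19.9 to 37.4 TPM at E10.5, and 3 of 3 tested rose in each genotype. Each muscle marker stayed under a TPM of 1 in E9.25 *Gli3*-/- (the highest value was 0.692, for *Lbx1*), so the direction was fixed by the filter in that genotype too. Platelet markers came to 6.33 to 19.7 and 17.3 to 35.4 TPM, with 1 of 2 tested higher in WT and 2 of 3 in *Gli3*-/-. *Gp9* stayed under a TPM of 1 in E9.25 *Gli3*-/- (at most 0.936), so its direction with stage in that genotype was also fixed by the filter. Neural markers came to 5.99 to 12.5 TPM in E9.25 WT, 2.81 to 4.82 TPM in E9.25 *Gli3*-/- and 8.21 to 15.5 TPM at E10.5, with *Olig2* listed at 0 in every E10.5 library and the 1 tested, *Tubb3*, higher with stage in *Gli3*-/-, and erythroid markers to 6921 to 23450 and 10120 to 33360 TPM, the highest of these in E10.5 *Gli3*-/- replicate 3, with 1 of 6 lower with stage in WT. Surface ectoderm and ridge markers came to 115 to 215 TPM at E9.25. The part of these cells in the stage and genotype differences of the members was not tested.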

How the data were processed

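RNA from 14 pools of forelimb buds was sequenced by the authors as single reads of 100 bases and aligned with HISAT2. The tables that the authors deposited give for each gene ID the coverage signal (mean read depth per base), the FPKM and the TPM, on the build named in the labels (mm10). The tool that made them is not given in the sources used here. The authors used DESeq2, which was not run here because the tables hold no counts. Library size was taken from the modal coverage per FPKM and the read length, so the precision of low values is approximate.

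TPM of a gene ID on several lines was summed and log2(TPM + 1) was compared with limma 3.58.1 in R 4.3.3 (lmFit, then eBayes with a mean-variance trend). A gene was tested if 3 or more libraries of the comparison had a TPM of 1 or more. Two-sided p-values were adjusted over all tested genes (Benjamini-Hochberg) and called below 0.05. A genotype or stage comparison used its 2 groups, and the interaction all 14 libraries. The procedure was tested on simulated data. Alternatives changed the pseudocount (0.1), the filter (none, or a TPM of 5), the variance trend (none), the scaling (size factors by the median of ratios), the weights (by sample quality), the design (a replicate block, or 1 model of all libraries) or left out each library. Removing each library's trend over gene span was added after seeing the data. Other steps used Python 3.11.15, pandas 2.3.3, NumPy 2.4.6 and matplotlib 3.10.9.

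The members, lists and tests were chosen with earlier results of these data known. From each pathway list, at most 4 genes per comparison are named, those that passed with the largest change. In places a list's other members are named to say which were tested or had a direction fixed by the filter. For each member that passed a test the 2 genes of most similar profile are named. Markers are named to define their lists. Promoter windows are from RefSeq. Other data types of the series were not used here.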

Additional observations from a re-analysis of the deposited data

Results flagged for a closer look

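The difference between the genotypes in the stage response of *Tgfb2* passed its own test, with an interaction of -1.76 on the log2 scale (SE 0.30, limma adjusted p = 0.00732). All 4 *Gli3*-/- libraries were above the WT libraries at E9.25 and all 3 were below them at E10.5. The same held for 9.97% of tested genes at E9.25 and, separately, for 11.5% at E10.5. The whole bud was taken at E9.25 and the anterior part at E10.5, and the part of the dissected region in this difference cannot be told apart from that of the stage.

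*Tgfbr2* in E9.25 *Gli3*-/- was measured at 4.97 TPM in replicate 2, apart from the other 3 libraries, which lay between 3.46 and 3.60. It was the only such value among the 16 sets of 4 libraries looked at, and chance gives about 1 in 20.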

How the results depend on the processing

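At E9.25, 0 members passed in every other setting and with each library left out, except in 1 model of all 14 libraries, where 2 did. At E10.5, 0 passed with no filter and 0 with the replicate block by the titles (Tgfb2 -0.86, adjusted p = 0.162), and 0 to 1 with a library left out. In the interaction 2 passed with no variance trend and 2 with quality weights, 0 with the replicate block (Tgfb2 -1.73, adjusted p = 0.0540), and 1 to 2 with a library left out. The cause was not tested. Same-numbered libraries did not deviate together at E9.25 (r -0.20 to -0.16 over 3 pairs) or by the titles at E10.5 (-0.18 to 0.15). With 3 pairs each, and deviations taken from the means of small groups, these values cannot exclude shared litters or batches. By the numbers of the E10.5 tables r was 0.05 to 0.32, and that replicate block kept Tgfb2 as the 1 member that passed.

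Values that did not pass changed sign for Tgfb3 at E9.25 (-0.088 with size factors, -0.070 with quality weights, -0.091 to 0.10 with a library left out), for stage in WT of Tgfb1 (-0.16 with size factors, -0.15 to 0.33 with a library left out) and Tgfb2 (-0.11 with size factors), and for the interaction of Tgfbr2 (0.16 with size factors, 0.075 with the span trend removed, -0.18 to 0.15 with a library left out).

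Over all genes, calls at E9.25 numbered 0 with no filter, 53 with quality weights, 66 with the replicate block, 1185 in 1 model and 2 to 196 with a library left out. At E10.5 they numbered 391, 1356, 164, 406 and 301 to 680. In WT stage the block gave 4699. In Gli3-/- stage quality weights gave 6520, and leaving out a library 2129 to 4326. In the interaction quality weights gave 830, the block 138 and leaving out a library 150 to 1433. Size factors changed the split of higher and lower calls to 16 and 10 at E9.25, 3183 and 3275 for stage in WT, 2428 and 2225 for stage in Gli3-/-, and 133 and 229 in the interaction.

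Low transcripts limit the activin genes, and pooled buds limit statements to tissue averages.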
